A study of Mus musculus with 18 samples.

Results

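Ionotropic and metabotropic glutamate receptor genes and the genes of their auxiliary subunits were followed through 3 deposited comparisons of the mouse dentate gyrus. The genes were taken by symbol, and all 32 listed symbols were found among the 24015 rows of each table and were tested in each. They comprised 4 AMPA receptor subunits, 5 kainate receptor subunits, 6 NMDA receptor subunits, 1 delta receptor subunit, 6 metabotropic receptors, 6 transmembrane AMPA receptor regulatory proteins (TARPs), 2 cornichons and the 2 kainate receptor partners Neto1 and Neto2. RNA came from microdissected dentate gyrus of C57BL/6 mice aged 8 weeks, 1 library per animal, in 6 groups of 3. The groups shRNA-Ctrl_E0 and shRNA-Ctrl_E1 carried a control short hairpin RNA, and shRNA-cFos_E0 and shRNA-cFos_E1 carried a hairpin named for c-Fos. The study is one of neuronal activation, and its E1 groups are set against E0 groups, which the deposited comparisons call sham. In the remaining pair, cFos_OE overexpressed c-Fos and EYFP_OE the fluorescent protein EYFP. The c-Fos protein is part of AP-1, a dimeric transcription factor whose genes respond quickly to neuronal firing. Neither the stimulus nor the promoters, vectors and target cells of the constructs are stated in the sources used here. The 3 tables share no group with each other. Values per library were not analysed here, so each comparison is described by the mean normalized count over its libraries, the authors' log2 fold change and its standard error (±). The level of each group was estimated from that mean and the fold change, and such group levels carry no error of their own. The deposited fold changes were read as shrunken toward 0, since their standard errors reach a ceiling, and the levels have this removed, so a step between levels is somewhat larger than the fold change beside it.

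Glutamate is the main excitatory transmitter of the brain. AMPA receptors, built from the products of Gria1 to Gria4, carry the fast synaptic current, and NMDA receptors pass calcium when transmitter release and depolarization coincide. Kainate receptors act on both sides of the synapse and are prominent at the mossy fibres, the axons of dentate granule neurons. Metabotropic receptors signal through G proteins: Grm5 couples to phospholipase C, while Grm2, Grm3, Grm4, Grm7 and Grm8 lower cyclic AMP and act in large part as presynaptic brakes on release. TARPs and cornichons carry AMPA receptors to the surface and slow their closing, and Neto proteins do the like for kainate receptors.

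Among the 32 genes, levels per length spanned from Grm8 to Cnih2. Per kilobase of merged exons, the authors' deposited mean counts for shRNA-Ctrl gave 5014 for Cnih2, 3387 for Gria1, 1254 for Grik5, 893 for Gria2 and 740 for Grin1. The lowest values, from the authors' deposited table for shRNA-Ctrl, were 32.0 for Grik1, 24.7 for Grm4 and 5.67 for Grm8. Cnih2, Gria1 and Grik5 also led in the authors' deposited tables for shRNA-cFos (2762, 2301 and 850) and overexpression (4235, 3192 and 957). Within each receptor class 1 gene or a pair of genes held most of the level, namely Gria1 and Gria2, Grik5, Grin1, Grm5 and Grm2, and among TARPs Cacng8 and Cacng7. These levels compare genes only roughly, because the authors' gene models are not known and merged exons include long untranslated ends.

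**Figure D1:**
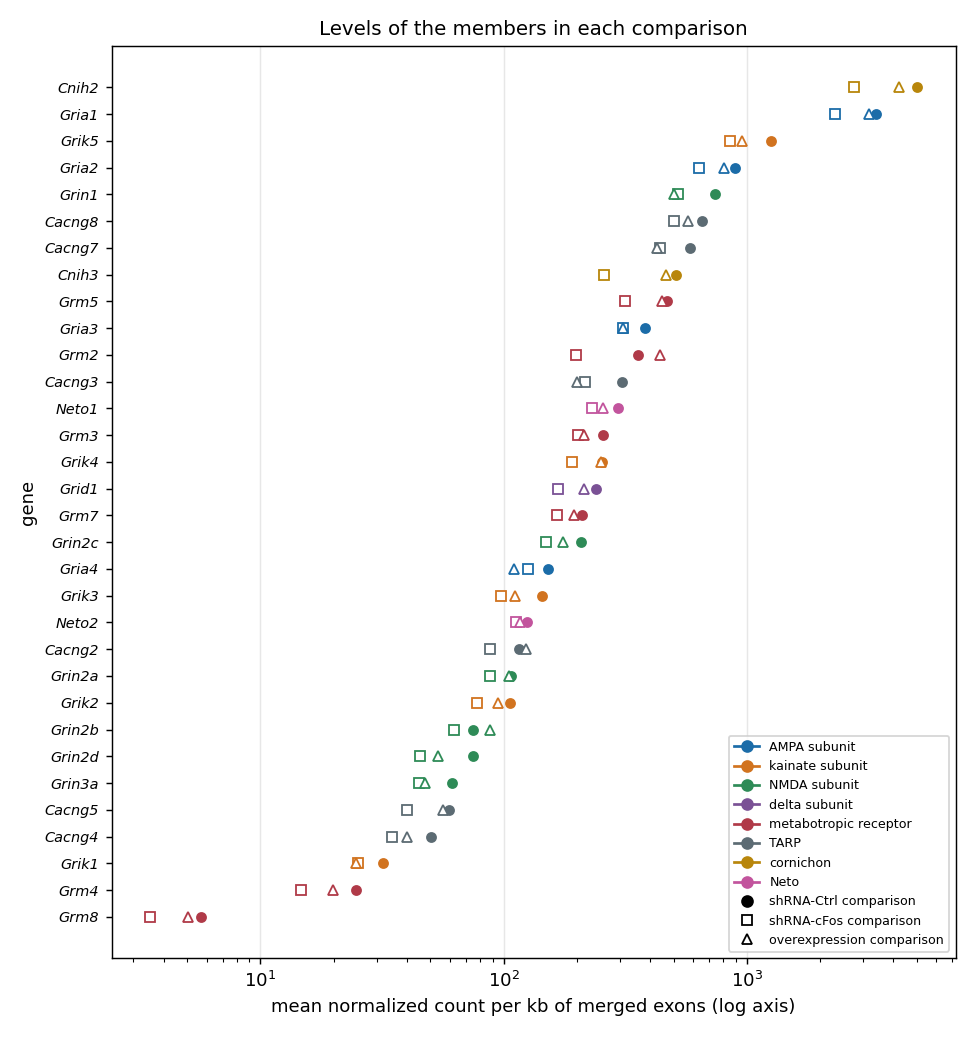
Mean normalized count per kilobase of merged exons (log axis) of the 32 genes, ordered by the shRNA-Ctrl comparison, with 1 point per deposited comparison and colours for the gene class. Cnih2 and Gria1 lie highest and Grm8 lowest in all 3 comparisons, which were normalized separately.

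Upstream sequences are shown for 3 genes, chosen by their E1 responses. Grm2 and Cacng5 were the members lower at E1 with both hairpins, and Cnih3 had the smallest adjusted p for a difference between the hairpins. Each is the 250 bases before the annotated RefSeq start (GRCm38.p6, which differs from the build mm9 used by the authors), 5′ to 3′ on the gene's strand. They lie at chr9:106656110-106656359 (minus strand) for Grm2, at chr11:107915056-107915305 (minus strand, the outer of 2 starts) for Cacng5 and at chr1:181352378-181352627 (plus strand) for Cnih3. Capitals mark a match to the AP-1 motif TGANTCA, searched on both strands.

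Grm2: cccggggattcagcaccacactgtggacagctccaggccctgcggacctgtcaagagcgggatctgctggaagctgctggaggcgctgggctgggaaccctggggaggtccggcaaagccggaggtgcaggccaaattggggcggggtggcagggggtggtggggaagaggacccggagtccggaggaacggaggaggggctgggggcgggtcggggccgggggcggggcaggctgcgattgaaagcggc
Cacng5: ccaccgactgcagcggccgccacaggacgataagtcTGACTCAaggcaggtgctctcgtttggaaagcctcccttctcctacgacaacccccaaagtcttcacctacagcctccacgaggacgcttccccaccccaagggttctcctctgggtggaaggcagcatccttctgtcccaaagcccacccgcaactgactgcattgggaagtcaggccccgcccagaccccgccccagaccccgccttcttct
Cnih3: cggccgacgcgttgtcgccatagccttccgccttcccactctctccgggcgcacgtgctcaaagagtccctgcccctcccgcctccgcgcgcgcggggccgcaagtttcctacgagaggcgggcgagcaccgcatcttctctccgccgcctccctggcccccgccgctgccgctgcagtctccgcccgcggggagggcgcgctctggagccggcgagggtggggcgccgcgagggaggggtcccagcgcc

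The match in Cacng5 starts 214 bases before the start site, and the windows of Grm2 and Cnih3 hold no TGANTCA. RefSeq windows were at hand for 21 of the 32 genes, 26 windows in all. TGANTCA occurred in 2 of these 26 windows (Cacng5 and Grm8) and in 6.75% of all 32851 upstream windows of this length. The cyclic AMP response element TGACGTCA occurred in 0 of the 26 and in 1.55% of all. Its shorter form TGACG, which lies within TGACGTCA, occurred in 2 of the 26 (Grin1 and Grm8) and in 17.8% of all. G and C made up a median of 62.2% of the members' windows and 52.4% of all windows, and 76.0% in Cnih3. These matches describe letters in a window and are not binding sites.

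Fos was higher at E1 with either hairpin and with overexpression, at 3.36 ± 0.14, 2.33 ± 0.15 and 3.34 ± 0.20 on the log2 scale in the authors' deposited tables. Its E1 response was smaller with shRNA-cFos by -1.03 ± 0.20, computed from the authors' deposited tables. Granule neuron markers (Prox1, Dsp, C1ql2, Tdo2, Calb1, Plekha2, Stxbp6, Lct) were all detected, with estimated levels of at least 211 normalized counts in both shRNA-Ctrl groups, from the authors' deposited table. The library is bulk tissue, so fewer cells of a type and less RNA per cell cannot be told apart. Median log2 fold changes over all tested genes were 0.01, 0.00 and -0.01 for shRNA-Ctrl, shRNA-cFos and overexpression, from the authors' deposited tables.

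Among the called glutamate receptor genes, higher values outnumbered lower ones at E1 with the c-Fos hairpin, and lower ones outnumbered higher ones with c-Fos overexpression. At E1 with the control hairpin 21.9% of members were lower, near the 16.2% of all tested genes, and no direction is read from this. For shRNA-Ctrl, shRNA-cFos and overexpression, 22, 14 and 20 of 32 were not called, in the authors' deposited tables. With shRNA-Ctrl, 3 of 32 were higher (against 16.8% of all tested genes) and 7 lower (against 16.2%) at an adjusted p under 0.05 in the authors' deposited table. With shRNA-cFos, 16 of 32 were higher (against 16.3% of all tested genes) and 2 lower (against 11.7%) in the authors' deposited table. With overexpression, 1 of 32 was higher (against 7.1% of all tested genes) and 11 lower (against 5.86%) in the authors' deposited table. The medians over the 32 genes were -0.13, 0.26 and -0.22 on the log2 scale, from the authors' deposited tables in the same order. By class, the medians with shRNA-cFos were 0.30 for AMPA and kainate subunits, 0.27 for NMDA subunits and TARPs, 0.29 for metabotropic receptors, 0.38 for cornichons and 0.44 for Neto genes, from the authors' deposited tables. With overexpression the medians ran from -0.38 for Neto genes to -0.02 for kainate subunits, from the authors' deposited table. Of the 10 auxiliary subunits 5 were higher and 1 lower with shRNA-cFos, and of the 16 ionotropic subunits 8 were higher and 0 lower, by the authors' deposited table. Changes of the members were small: 2, 6 and 1 of the called genes also reached 1.5-fold in the authors' deposited tables. The share of all tested genes that did so was not computed. A gene was called from 3 animals a group in each of these tables.

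**Figure D2:**
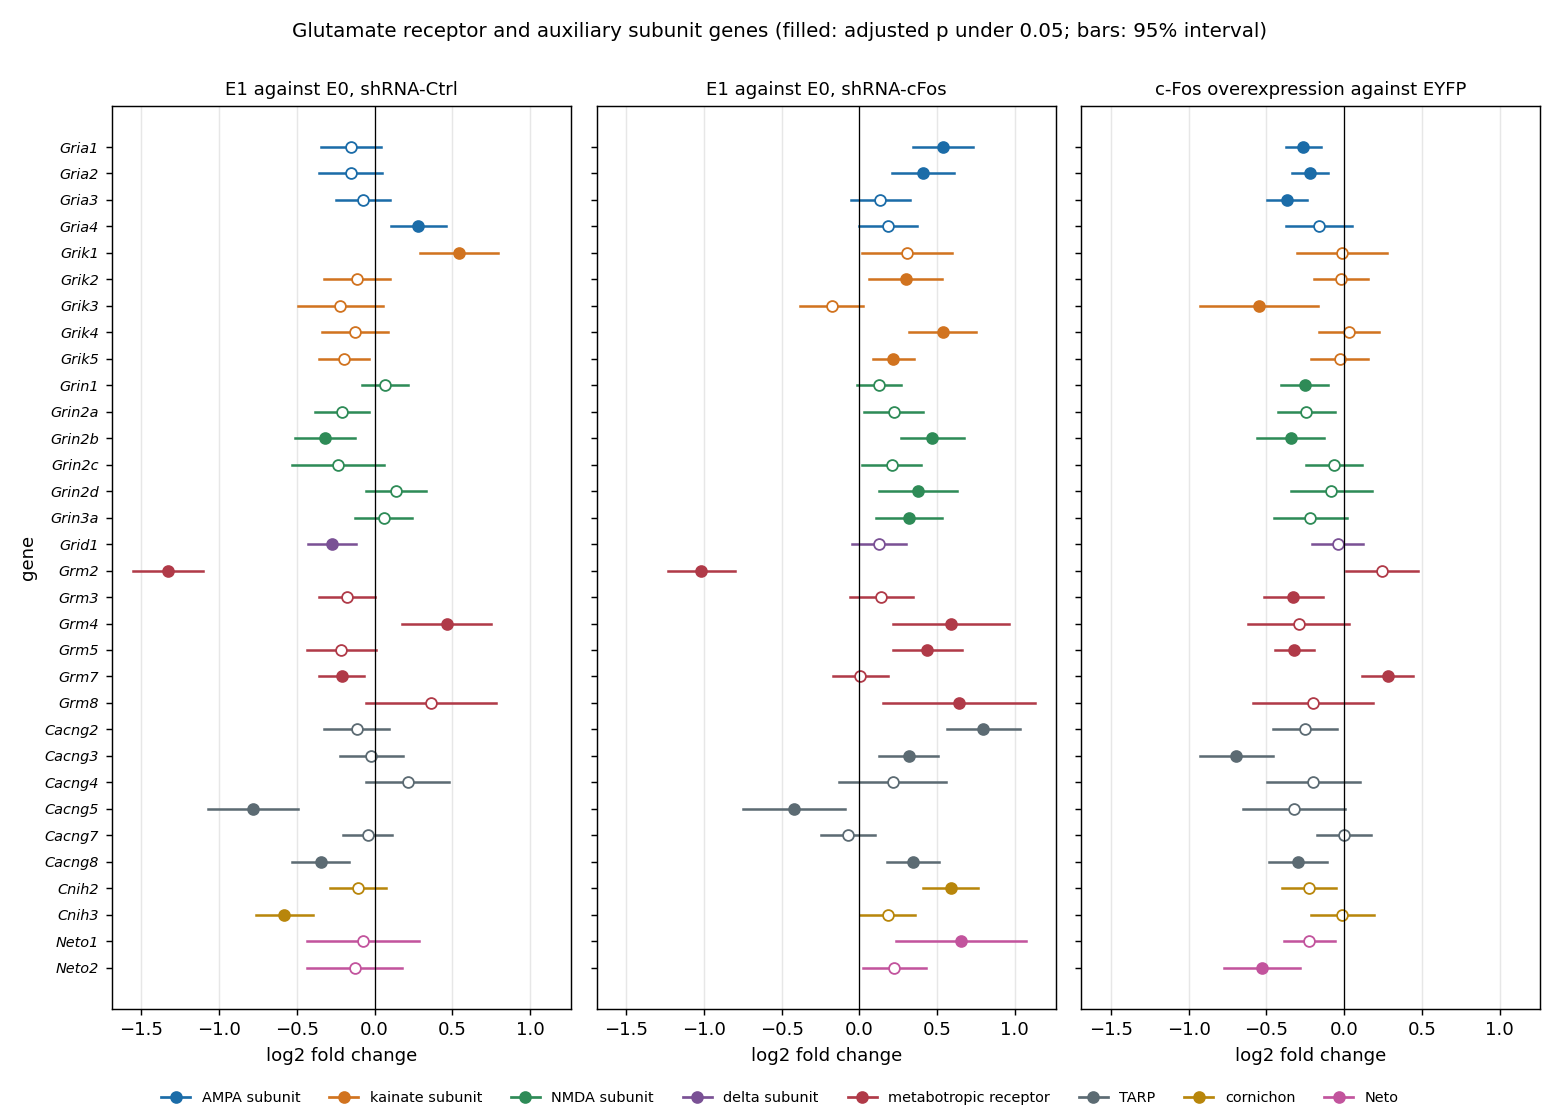
Log2 fold change of each of the 32 genes in the 3 deposited comparisons, with the gene class in colour, 95% intervals from the deposited standard errors as bars, and filled points for an adjusted p under 0.05. With shRNA-Ctrl 24 points lie below 0, with shRNA-cFos 28 lie above 0, and with overexpression 29 lie below 0.

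Among AMPA receptor subunits, the abundant Gria1 and Gria2 were higher at E1 with the c-Fos hairpin and lower with c-Fos overexpression. Gria1 had estimated levels of 21560 normalized counts at E0 and 19370 at E1 with shRNA-Ctrl, and of 11250 and 16570 with shRNA-cFos, from the authors' deposited tables. Its log2 fold changes were -0.15 ± 0.10 and 0.54 ± 0.10 in the authors' deposited tables, with Benjamini-Hochberg adjusted p of 0.244 and 1.34e-06. Gria2, whose edited subunit keeps the receptor nearly impermeable to calcium, went from 14650 to 13130 normalized counts with shRNA-Ctrl (not past the threshold) and from 8476 to 11370 with shRNA-cFos (log2 0.41 ± 0.10), by the authors' deposited tables. Levels in the shRNA tables share no scale, so only the step within each pair is compared. With overexpression Gria1 stood at 21070 normalized counts in EYFP_OE and 17510 in cFos_OE, and fell by 16.6% in the authors' deposited table. Gria2 fell by 14.2% and Gria3 fell by 22.4% with overexpression in the authors' deposited table, with adjusted p of 0.00273 and 1.24e-06.

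Gria3 did not pass at E1 with either hairpin, at -0.07 ± 0.09 and 0.14 ± 0.10 in the authors' deposited tables. Gria4, the scarcest AMPA subunit here and one common in interneurons, was the only AMPA subunit called at E1 with shRNA-Ctrl. It rose with shRNA-Ctrl, from 863 to 1055 normalized counts (0.28 ± 0.09), in the authors' deposited table. With shRNA-cFos its value was 0.18 ± 0.09 and with overexpression -0.16 ± 0.11, neither past the threshold in the authors' deposited tables. The interneuron markers (Gad1, Gad2, Slc32a1, Sst, Pvalb, Vip, Npy, Cck) were higher at E1 for 6 of 8 genes with shRNA-Ctrl (against 16.8% of all tested genes) and 5 of 8 with shRNA-cFos (against 16.3%), by the authors' deposited tables. Their summed estimated level went from 15540 to 18310 normalized counts with shRNA-Ctrl and from 10170 to 14060 with shRNA-cFos, from the authors' deposited tables, with no marker at 0. Their part in the value of Gria4 was not tested.

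Among the auxiliary subunits of AMPA receptors, TARPs ran from -0.78 to 0.21 with shRNA-Ctrl and from -0.42 to 0.80 with shRNA-cFos on the log2 scale, from the authors' deposited tables. Cacng2, which encodes stargazin, the founding TARP, had the largest deposited rise at E1 with shRNA-cFos, 73.9% (0.80 ± 0.12, adjusted p = 1.47e-09), with 347 and 624 normalized counts in the authors' deposited table. With the shrinkage removed Grm8 rose further, at 0.97 against 0.85 on the log2 scale, computed from the authors' deposited table. The deposited standard error of Grm8, 0.25, lay close to the ceiling of 0.26, so its value without shrinkage is imprecise. With shRNA-Ctrl Cacng2 had 661 and 609 normalized counts, a difference that did not pass (adjusted p = 0.444 in the authors' deposited table). Cacng8, the TARP most typical of hippocampus, moved in opposite directions: it fell by 21.4% with shRNA-Ctrl, from 1715 to 1340 normalized counts, and rose by 27.1% with shRNA-cFos, from 1032 to 1320, in the authors' deposited tables. It was also lower with overexpression, at -0.30 ± 0.09 in the authors' deposited table. Cacng3 fell by 38.2% with overexpression, the largest deposited fall of the 32 genes there, with 700.1 and 411 normalized counts in the authors' deposited table (adjusted p = 4.28e-07). With the shrinkage removed Grik3 fell further, at -0.82 against -0.77 on the log2 scale, computed from the authors' deposited table. The deposited standard error of Grik3, 0.19, lay close to the ceiling of 0.20, so its value without shrinkage is imprecise. At E1 Cacng3 was at -0.02 ± 0.10 with shRNA-Ctrl and rose with shRNA-cFos (0.32 ± 0.10), by the authors' deposited tables.

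Cacng5, an atypical TARP, fell at E1 with both hairpins. Its estimated levels went from 292 to 163 normalized counts with shRNA-Ctrl (-0.78 ± 0.15) and from 178 to 128 with shRNA-cFos (-0.42 ± 0.17), by the authors' deposited tables. The second of these was near the threshold (adjusted p = 0.0448 in the authors' deposited table). With overexpression its value was -0.32 ± 0.17, which did not pass in the authors' deposited table. Cacng7 and Cacng4 passed in none of the 3 authors' deposited tables. For the abundant Cacng7 the 95% intervals were narrow, from -0.20 to 0.11 with shRNA-Ctrl, from -0.25 to 0.10 with shRNA-cFos and from -0.18 to 0.17 with overexpression, from the authors' deposited tables. For Cacng4 they reached from -0.05 to 0.48 and from -0.13 to 0.56 at E1, in the authors' deposited tables.

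The cornichon genes split by hairpin. Cnih3 fell by 33.1% with shRNA-Ctrl, from 1685 to 1115 normalized counts (adjusted p = 1.6e-08), and was at 666 and 759 with shRNA-cFos, which did not pass, in the authors' deposited tables. Cnih2, the gene of highest level per length, had 7125 and 6605 normalized counts with shRNA-Ctrl, not past the threshold. With shRNA-cFos it rose by 50.2%, with 3000 and 4564 normalized counts, in the authors' deposited table (adjusted p = 4.07e-09). Neither passed with overexpression, with Cnih2 at -0.22 ± 0.09 and Cnih3 at -0.01 ± 0.10 in the authors' deposited table.

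Kainate receptor genes were higher at E1 with shRNA-cFos for 3 of 5 members (against 16.3% of all tested genes) in the authors' deposited table. None was lower (against 11.7% of all tested genes). Grik4, which encodes a high-affinity subunit found in mossy fibre circuits, rose by 45.1%, from 917 to 1354 normalized counts, and Grik5, its close relative, by 16.3%, from 4058 to 4732, in the authors' deposited table. Grik2, the main channel-forming partner of both, rose by 22.9% and lay near the threshold (adjusted p = 0.047 in the authors' deposited table). With shRNA-Ctrl none of these 3 passed, at -0.13 ± 0.11, -0.20 ± 0.08 and -0.11 ± 0.11 in the authors' deposited table. Grik1, a low-level gene typical of interneurons, rose with shRNA-Ctrl by 45.8%, from 173 to 257 normalized counts, in the authors' deposited table (adjusted p = 2e-04). Its value with shRNA-cFos, 0.31 ± 0.15, did not pass in the authors' deposited table. The interneuron marker counts and sums given for Gria4 stand beside this gene too, and their part in it was not tested. Grik3 was lower with overexpression alone among the 3 tables, from 1270 to 719 normalized counts (-0.55 ± 0.19, adjusted p = 0.0377) in the authors' deposited table.

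Neto1 and Neto2 were each called in 1 of the 3 authors' deposited tables. Neto1, which also binds NMDA receptors, went from 1394 to 2468 normalized counts at E1 with shRNA-cFos (0.66 ± 0.21, adjusted p = 0.0109) in the authors' deposited table. Its standard errors of 0.18 and 0.21 at E1 were about as large as those of genes with far lower counts, and with shRNA-Ctrl its value was -0.08 in the authors' deposited table. With overexpression Neto2 fell by 30.7%, from 859 to 571 normalized counts, in the authors' deposited table (adjusted p = 4.33e-04), and passed with neither hairpin.

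Of the NMDA receptor genes, Grin2b showed the clearest reversal between the hairpins. It fell at E1 with shRNA-Ctrl, from 2076 to 1653 normalized counts (-0.32 ± 0.10), and rose with shRNA-cFos, from 1295 to 1817 (0.47 ± 0.10), in the authors' deposited tables. With overexpression it was lower again, from 2471 to 1909 normalized counts (-0.34 ± 0.11), in the authors' deposited table. Grin2b encodes the subunit that gives slow channel closing and dominates early in life, and Grin2a its faster adult counterpart. Grin2a passed in none of the authors' deposited tables, with values of -0.21 ± 0.09, 0.22 ± 0.10 and -0.24 ± 0.09 for shRNA-Ctrl, shRNA-cFos and overexpression. Grin1, the obligatory subunit, was at 0.07 ± 0.07 and 0.13 ± 0.07 at E1 and with overexpression it fell by 16.1%, in the authors' deposited tables. The gene shares 1307 exonic bases with the antisense gene Grin1os, and the strand setting of the counting is not known. Other members also share exonic bases with genes of the opposite strand, among them Grin2d (643), Cacng2 (323) and Neto1 (219). Grin2d and Grin3a rose at E1 with shRNA-cFos, by 0.38 ± 0.13 and 0.32 ± 0.11, and passed in neither other table of the authors' deposited tables. The differences of their E1 responses between the hairpins, 0.24 ± 0.16 and 0.26 ± 0.14, did not pass the test given below. Grin2c passed in none of the 3 comparisons. Its value of -0.23 ± 0.15 with shRNA-Ctrl was among the less precise ones in the authors' deposited table. The delta receptor gene Grid1 fell by 17.1% at E1 with shRNA-Ctrl, from 1562 to 1290 normalized counts, and did not pass with shRNA-cFos (0.13 ± 0.09), by the authors' deposited tables.

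Among metabotropic receptors Grm2 had the largest change of all 32 genes. It fell by 60.3% at E1 with shRNA-Ctrl, from 2525 to 966 normalized counts, and fell by 50.6% with shRNA-cFos, from 1317 to 629, in the authors' deposited tables. The adjusted p were 3.71e-29 and 1.98e-18 in the authors' deposited tables. Grm2 encodes a release-limiting autoreceptor that dentate granule neurons place on mossy fibres. With overexpression its value was 0.25 ± 0.12, from 1947 to 2349 normalized counts, and did not pass (adjusted p = 0.182 in the authors' deposited table). Grm2 shares 470 exonic bases with the antisense gene Gm28111, which without strand cannot be separated. Its closest relative Grm3, common in astrocytes, was at -0.18 ± 0.09 and 0.14 ± 0.10 at E1 and with overexpression it fell by 20.2%, in the authors' deposited tables. Astrocyte markers (Aqp4, Slc1a3, Aldh1l1, Gja1, Aldoc, Gfap) were higher with overexpression for 2 of 6 (against 7.1% of all tested genes) and lower for 1 (against 5.86%) in the authors' deposited table. Their summed level went from 41880 to 59440 normalized counts in the authors' deposited table, with no marker at 0, and their part in Grm3 was not tested.

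Grm5 followed Gria1: it went from 5165 to 4430 normalized counts with shRNA-Ctrl without passing, rose from 2727 to 3746 with shRNA-cFos, and fell from 5116 to 4073 with overexpression, in the authors' deposited tables. Its log2 values were -0.21 ± 0.11, 0.44 ± 0.11 and -0.32 ± 0.06 in the authors' deposited tables. Grm4 rose at E1 with both hairpins, from 123 to 173 normalized counts with shRNA-Ctrl and from 66.7 to 108 with shRNA-cFos, by the authors' deposited tables (adjusted p of 0.0067 and 0.0102). Grm7 was the single member higher with overexpression, by 21.4%, and it fell by 13.7% with shRNA-Ctrl, in the authors' deposited tables. With shRNA-cFos Grm7 was at 0.01 ± 0.09, with a 95% interval from -0.17 to 0.18, in the authors' deposited table. The difference of its E1 responses between the hairpins, 0.22 ± 0.12, did not pass the test given below. Grm8, the member of lowest level per length, had an estimated 23.6 normalized counts at E0 and rose to 46.1 with shRNA-cFos in the authors' deposited table (0.64 ± 0.25, adjusted p = 0.0395). With shRNA-Ctrl its value, 0.36 ± 0.21, did not pass. The difference of its E1 responses between the hairpins, 0.275 ± 0.329, did not pass either.

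A difference in E1 response between hairpins was tested directly, as the difference of both log2 fold changes, with p-values adjusted over all 14386 genes tested in both tables. Of the 32 genes, 14 had a higher response with shRNA-cFos, against 12.9% of all genes, and 0 a lower one, against 11%, computed from the authors' deposited tables. The median difference was 0.36 and 29 of 32 values lay above 0, computed from the authors' deposited tables, while the median over all genes was 0.01. At an unadjusted p under 0.05 the counts were 18 and 0, by calculation from the authors' deposited tables. The shares of all genes at this looser threshold were not computed. Cacng2 led with a difference of 0.91 ± 0.16 (normal approximation, Benjamini-Hochberg adjusted p = 8.11e-07). Grin2b followed with 0.79 ± 0.14, Cnih3 with 0.76 ± 0.13, Neto1 with 0.73 ± 0.28, Cnih2 and Cacng8 with 0.69 each and Gria1 with 0.69 ± 0.14, computed from the authors' deposited tables. Both cornichons, 3 of 5 kainate subunits, 2 of 4 AMPA subunits, 2 of 6 NMDA subunits, 2 of 6 TARPs, Grid1, Grm5 and Neto1 passed, computed from the authors' deposited tables.

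**Figure D3:**
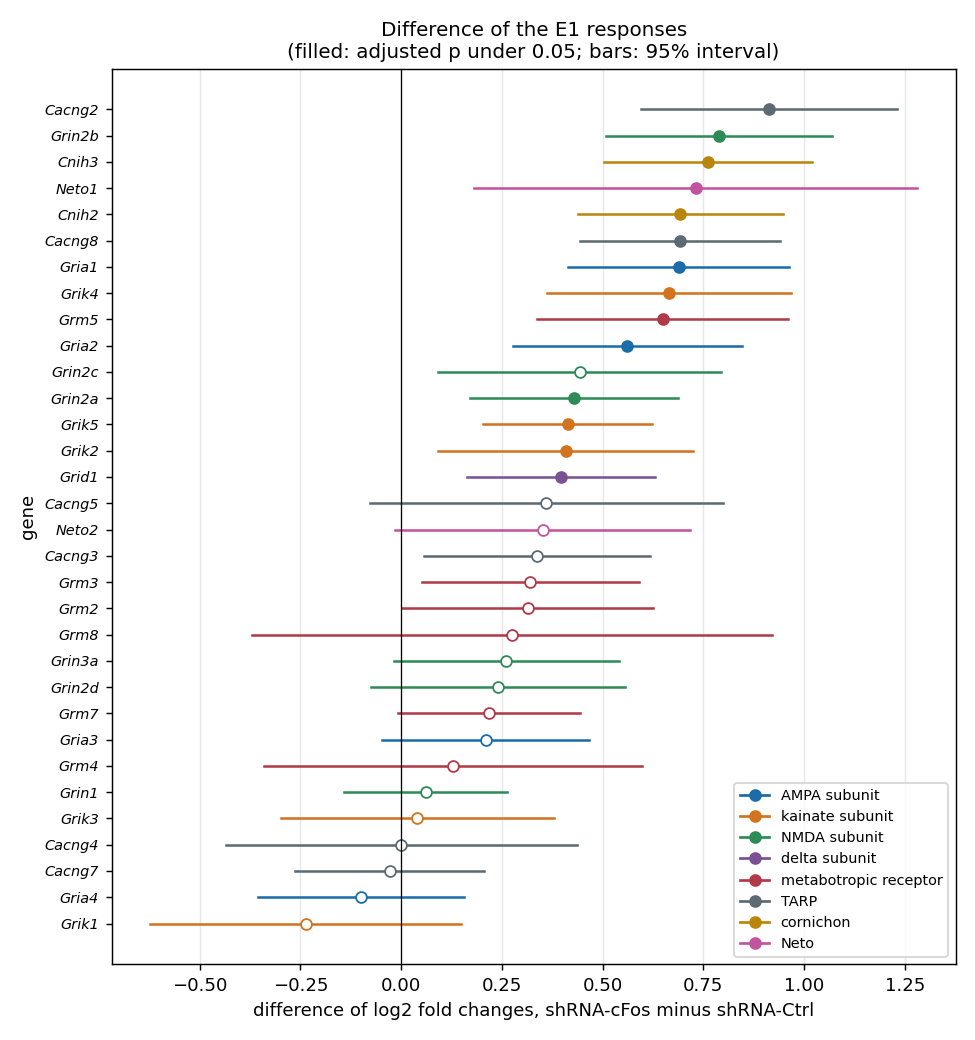
Difference of the E1 log2 fold changes, shRNA-cFos minus shRNA-Ctrl, for the 32 genes, ordered by size, with 95% intervals as bars, gene classes in colour and filled points for an adjusted p under 0.05. Cacng2 lies highest at 0.91 and Grik1 lowest at -0.24, and no filled point lies below 0.

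Genes called in the same direction with both hairpins did not pass this test, although their intervals were wide. For Grm2 the difference was 0.31 ± 0.16, with a 95% interval from 0.002 to 0.63 (adjusted p = 0.141), computed from the authors' deposited tables. This interval, which is not adjusted for the number of genes, lay just above 0. After adjustment the fall of Grm2 was not shown to differ between the hairpins, and a difference of up to 0.63 lies within its interval. For Cacng5 the interval ran from -0.08 to 0.80 and for Grm4 from -0.34 to 0.60, computed from the authors' deposited tables. Gria4 (-0.10 ± 0.13) and Grik1 (-0.24 ± 0.20), called with shRNA-Ctrl alone, did not pass either, computed from the authors' deposited tables. Cnih3 and Grid1, lower with shRNA-Ctrl alone, did differ, by 0.76 ± 0.13 and 0.40 ± 0.12 computed from the authors' deposited tables. Grm7, lower with shRNA-Ctrl and not called with shRNA-cFos, did not pass (0.22 ± 0.12).

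**Figure D4:**
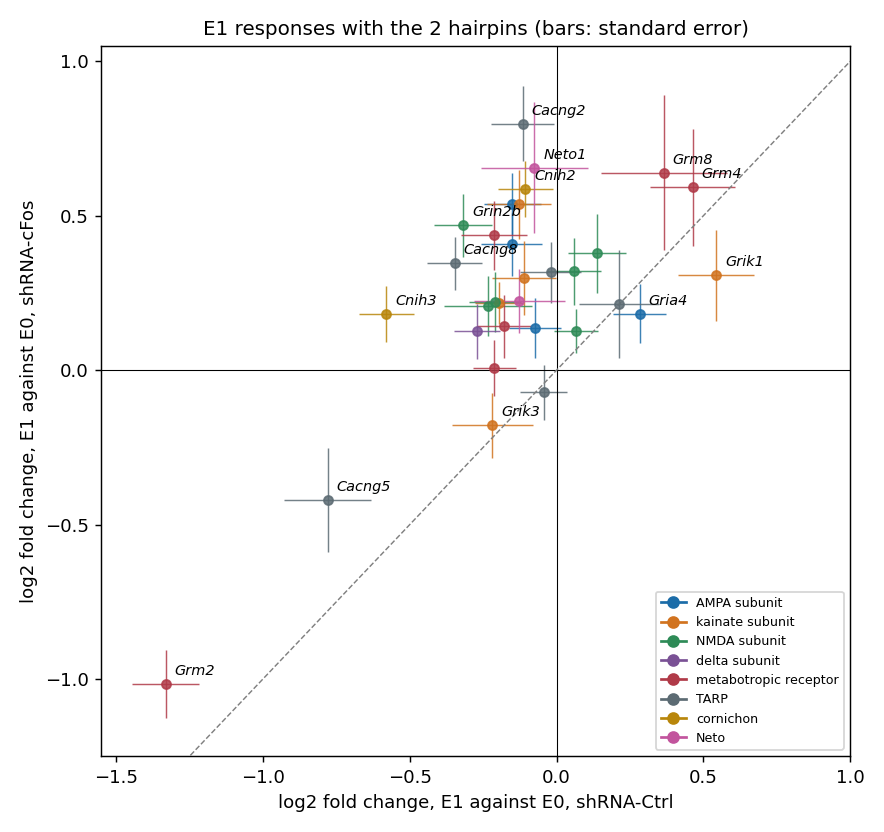
Log2 fold change at E1 with shRNA-Ctrl (x axis) against that with shRNA-cFos (y axis) for the 32 genes, with standard errors as bars, gene classes in colour and the dashed line of equal response. Grm2 and Cacng5 lie at lower left, 20 genes lie in the upper left quadrant, and none lies at lower right.

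Across the 32 genes the E1 responses with both hairpins had a Pearson r of 0.658 and a Spearman rho of 0.357, from the authors' deposited tables. Without Grm2 the Pearson r was 0.404 over 31 genes, against 0.394 over all 14386 genes, from the authors' deposited tables. Genes of 1 library share its depth and dissection, so these coefficients are a description. By sign, 20 of 32 genes were below 0 with shRNA-Ctrl and above 0 with shRNA-cFos, 8 were above 0 and 4 below 0 in both, and 0 had the opposite pattern, from the authors' deposited tables. Over all 14386 genes these counts were 3120, 4015, 4018 and 3233 in the same order, computed from the authors' deposited tables. Between shRNA-cFos and overexpression 26 of 32 genes were above 0 in the first and below 0 in the second, from the authors' deposited tables. Of all genes tested in both, 4133 of 14343 had that pattern of signs, computed from the authors' deposited tables. A total of 5 genes were called in opposite directions this way and also had a higher E1 response with shRNA-cFos, namely Gria1, Gria2, Grm5, Grin2b and Cacng8. The share of all genes with these joint calls was not computed. Cacng3 was called in opposite directions too, without passing the test of the difference (0.34 ± 0.14), computed from the authors' deposited tables.

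Estimated levels were also set side by side between the hairpins. After scaling the separately normalized shRNA tables by their median log2 ratio of -0.43, the members' E0 level with shRNA-cFos relative to shRNA-Ctrl had a median of -0.28 on the log2 scale. Their E1 ratio had a median of 0.12, or -0.31 without the scaling, which also moved the E0 median to -0.71, computed from the authors' deposited tables. Among the 32, 27 lay below 0 at E0 and 10 at E1 with the scaling, computed from the authors' deposited tables. With the same scaling the ratio was larger in size at E0 than at E1 for 24 of 32 members and for 7601 of 12406 genes in all, computed from the authors' deposited tables. The lowest E0 ratios were those of Cnih3 (-0.91), Cnih2 (-0.82) and Grm8 (-0.59), and Grm2 and Gria1 both stood at -0.51, computed from the authors' deposited tables. For Grin2b the ratio was -0.25 at E0 and 0.57 at E1 with the scaling, computed from the authors' deposited tables. The groups were not compared directly across the tables, and these ratios have no test.

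Granule neuron markers moved in the same directions as many members. They were lower at E1 for 7 of 8 genes with shRNA-Ctrl (against 16.2% of all tested genes), in the authors' deposited table. They were higher for 5 of 8 with shRNA-cFos (against 16.3%) and lower for 4 of 8 with overexpression (against 5.86%), in the authors' deposited tables. Their medians were -0.60, 0.24 and -0.32 in that order, and all 8 had a higher E1 response with shRNA-cFos (median 0.82), from the authors' deposited tables. The summed level went from 23880 to 16360 normalized counts with shRNA-Ctrl, from 10620 to 13200 with shRNA-cFos and from 19730 to 17310 with overexpression, from the authors' deposited tables. No marker was at 0. Beside the counts for the other cell types stand the shares of all tested genes, 16.8% higher and 16.2% lower with shRNA-Ctrl. These shares were 16.3% and 11.7% with shRNA-cFos, and 7.1% and 5.86% with overexpression. Mossy and pyramidal cell markers had medians of 0.22, -0.04 and -0.10 in the authors' deposited tables. Among these 8 markers 0, 1 and 0 were higher and 1, 1 and 1 lower in the authors' deposited tables. Microglial markers had medians of 0.29, -0.02 and 0.29, and 5, 1 and 3 of 6 were higher in the authors' deposited tables (0, 2 and 0 lower). Oligodendrocyte markers had medians of -0.15, -0.03 and -0.31 with 0 of 6 called by DESeq2 in any of the authors' deposited tables, and 0 at an unadjusted p under 0.05. Oligodendrocyte precursor markers were higher for 2 of 4 with shRNA-Ctrl and lower for 2 of 4 with shRNA-cFos, and 0 of 4 were called by DESeq2 with overexpression (1 at an unadjusted p under 0.05), in the authors' deposited tables. Endothelial markers were higher for 2 of 4 with shRNA-Ctrl, split 1 to 1 with shRNA-cFos, and were lower for 3 of 4 with overexpression, in the authors' deposited tables. Astrocyte markers were higher for 1 of 6 with shRNA-Ctrl, and higher for 2 and lower for 1 with shRNA-cFos, by the authors' deposited tables. Interneuron markers with overexpression were higher for 1 of 8 and lower for 2 in the authors' deposited table. The part of these cell types in the members' values was not tested.

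Other genes of glutamate signalling were counted in lists by role. Beside the counts of every list stand the shares of all tested genes, 16.8% higher and 16.2% lower with shRNA-Ctrl. These shares were 16.3% and 11.7% with shRNA-cFos, and 7.1% and 5.86% with overexpression. For the difference between the hairpins they were 12.9% higher and 11% lower. Of 21 further receptor partners and assembly factors, 3 were higher and 9 lower with shRNA-Ctrl, by the authors' deposited table. With shRNA-cFos 11 rose and 0 fell, and 2 rose and 4 fell with overexpression, in the authors' deposited tables. Their medians were -0.11, 0.26 and -0.09 in the authors' deposited tables, and 1 of them, C1ql2, is also a granule neuron marker here. Nptx2, a secreted pentraxin that gathers AMPA receptors, rose in all 3, by 4.65 ± 0.12, 4.15 ± 0.12 and 1.60 ± 0.20 in the authors' deposited tables. Olfm1, an AMPA receptor-associated olfactomedin, was at -0.63 ± 0.12, 0.60 ± 0.09 and -0.37 ± 0.10, called in each of the authors' deposited tables. For 12 of the 21 the E1 response was higher and for 1 lower with shRNA-cFos, by calculation from the authors' deposited tables. Anchoring and trafficking genes rose for 4 and fell for 9 of 22 with shRNA-Ctrl. They rose for 11 and fell for 1 with shRNA-cFos, and rose for 1 and fell for 5 with overexpression, in the authors' deposited tables. Their medians were -0.08, 0.28 and -0.11 in the authors' deposited tables. Camk2a, the kinase that phosphorylates AMPA receptors, had a higher E1 response with shRNA-cFos by 0.83 ± 0.12, and of these 22 genes 12 were higher and 3 lower, computed from the authors' deposited tables. The scaffold gene Akap5 fell with shRNA-Ctrl (-0.39 ± 0.11) and with overexpression (-0.51 ± 0.08) in the authors' deposited tables.

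Metabotropic signalling genes rose for 3 and fell for 3 of 16 with shRNA-Ctrl, rose for 10 and fell for 0 with shRNA-cFos, and rose for 2 and fell for 5 with overexpression, in the authors' deposited tables. Their medians were -0.11, 0.32 and -0.17 in the authors' deposited tables. Rgs4, which shortens G protein signals, rose in all 3, by 2.15 ± 0.07, 1.54 ± 0.08 and 1.73 ± 0.09 in the authors' deposited tables. Itpr1, the calcium store channel downstream of Grm5, fell with overexpression by 0.78 on the log2 scale (-0.78 ± 0.08) in the authors' deposited table. For 9 of these 16 the E1 response was higher and for 2 lower with shRNA-cFos, by calculation from the authors' deposited tables. Glutamate transporter genes rose for 1 and fell for 2 of 7 with shRNA-Ctrl, rose for 3 with shRNA-cFos and fell for 2 with overexpression, in the authors' deposited tables. Their medians were -0.03, 0.47 and -0.17 in the authors' deposited tables, and 1 of them, Slc1a3, is also an astrocyte marker here. Slc17a7, the vesicular transporter that marks many excitatory neurons, fell with shRNA-Ctrl (-0.37 ± 0.11) and rose with shRNA-cFos (0.79 ± 0.10), by the authors' deposited tables. Its difference of 1.17 ± 0.15 had the smallest adjusted p of the 3 that were higher among these 7, with 0 lower, computed from the authors' deposited tables.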

How the data were processed

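Source names put the 18 RNA-seq libraries into 6 groups of 3. The authors used mm9, TopHat2 and DESeq2, per the submitters' processing notes; versions, counting tool, annotation and strand setting are not stated in the sources used here. The 3 deposited tables hold the authors' comparisons. Per the file headers, each row gives the mean normalized count (a signal value, counts divided by size factors), the log2 fold change and its standard error (log2 scale), a Wald score, a p-value and a Benjamini-Hochberg adjusted p-value, as the authors' DESeq2 fit gave them. The tables hold 0 columns of values per library, so depth per library is unknown, precision is that of the deposited standard errors, and no library could be left out.

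The deposited log2 fold changes were read as shrunken toward 0 by a prior, an inference from the values that no header states: the standard errors peak at 0.29, 0.26 and 0.20, as a normal prior with standard deviation 0.59, 0.53 and 0.41 would give. Group levels were estimated from the mean and the fold change with the prior removed, with 3 libraries a group. Dates stood in place of 27 gene names in the overexpression comparison, and these rows were left out. Genes were called at an adjusted p under 0.05. For the difference between hairpins, the shRNA-cFos fold change minus the shRNA-Ctrl one was set against its standard error (both errors taken as independent), giving a 2-sided p from the normal distribution, adjusted over 14386 genes; the calculation was tested on simulated data. The shRNA tables were scaled to each other over 12406 genes with a mean of at least 50. Intervals are 95% normal intervals. Exon lengths and overlaps came from GENCODE M21 and upstream sequences from RefSeq, by symbol, and neither build is the mm9 of the files.

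The members and lists were chosen with earlier results of these data known. All members are named, and of each further list at most 4 genes per comparison with the smallest adjusted p. One further list, of receptor relatives, is not reported here. The planned fits of values per library could not be made, and the deposited values were used instead, as planned for that case. Alternatives were stricter calls, a fold minimum of 1.5, a mean minimum of 50, the prior removed, and centring on the median gene. Python 3.11.15 with numpy 2.4.6, scipy 1.17.1, pandas 2.3.3 and matplotlib 3.10.9 was used.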

Additional observations from a re-analysis of the deposited data

Results flagged for a closer look

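A set of 14 genes was flagged because the test of the difference itself found unlike E1 responses with the 2 hairpins. Each value is the E1 log2 fold change with shRNA-cFos minus that with shRNA-Ctrl, computed from the authors' deposited tables. AMPA receptor subunits were Gria1 (0.69) and Gria2 (0.56), and auxiliary subunits were Cacng2 (0.91), Cacng8 (0.69), Cnih2 (0.69) and Cnih3 (0.76). Kainate receptor genes were Grik2 (0.41), Grik4 (0.66) and Grik5 (0.41), with their partner Neto1 (0.73). NMDA and delta receptor genes were Grin2a (0.43), Grin2b (0.79) and Grid1 (0.40), and the metabotropic receptor was Grm5 (0.65). All 14 values were above 0. Granule neuron markers moved with them, with a median difference of 0.82 over 8 genes, and their part in these values was not tested.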

How the results depend on the processing

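A fold minimum of 1.5 left 2 called members with shRNA-Ctrl, 6 with shRNA-cFos, 1 with overexpression and 9 for the difference of the responses, in place of 10, 18, 12 and 14. Shares of all tested genes were not computed under the alternatives. An adjusted p under 0.01 left 11 with shRNA-cFos, of which 10 were higher, and 8 with overexpression, of which 7 were lower in place of 11. The other total counts stayed within 1.5 times of those reported under a threshold of 0.01, a mean of at least 50, removal of the prior and centring on the median gene. Removal of the prior changed none of the 128 calls of single members. A mean of at least 50 and centring each added Grik5 (-0.20) and Grin2a (-0.21 and -0.22) as lower with shRNA-Ctrl, which makes 9 lower, and centring ended the call of the difference of Grik2 (0.40). The estimated levels depended on the scaling between tables: without it the members' median log2 ratio between the hairpins was -0.71 at E0 and -0.31 at E1, in place of -0.28 and 0.12. No called member reversed its direction under these alternatives. No paired analysis was possible because the tables hold no values per library, so no fit with a replicate block and none without single libraries was run. Grm8 lay under the mean minimum of 50 with shRNA-cFos and overexpression and has no value there. Precision rests on 3 animals a group, and a member that did not pass is not shown to be unchanged.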
